A study of Homo sapiens with 11 samples.

Results

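Of 2793 genomic intervals with a peak of the transcription factor MYRF in both CFPAC1 libraries, 367 (13.1%) overlapped no peak of the histone mark H3K27ac in any of 4 CFPAC1 lists, and these sites are the subject here. They were selected on measured values. Overlapping MYRF peaks of both libraries were merged, merged intervals holding a peak of each list were kept as reproducible, and those sharing not even 1 bp with an H3K27ac peak were taken. The other 2426 reproducible sites overlapped H3K27ac in at least 1 list and serve as the comparison. H3K27ac and MYRF peak calls therefore chose the members, and values from those calls are given as a description only. HPAF2 MYRF, FOS and gene positions did not enter the choice directly and were tested. H3K27ac is common at gene starts and at FOS sites, so tests of gene ends and FOS are not independent of the choice. It lay over a RefSeq promoter window in all 4 lists for 54.5% of protein-coding genes with a window. Of reproducible FOS sites, 15.4% lacked it.

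CFPAC1 and HPAF2 are human cell lines from pancreatic ductal adenocarcinoma, and each of the 5 groups had 2 libraries. MYRF was precipitated with a home-made antibody from the unmodified lines, CFPAC1 in IMDM and HPAF2 in RPMI, each with 10% serum. FOS was mapped in a CFPAC1 clone infected with the lentiCRISPRv2 vector. H3K27ac was mapped in that control clone and in a MYRFKO clone, which carries Cas9 and a guide against MYRF. Each genotype is 1 clone, so clone and genotype cannot be told apart, and MYRF and H3K27ac come from different cultures. The labels do not say that the libraries of a pair came from separate cultures, so p-values speak for these libraries and their spread may be technical.

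H3K27ac is histone H3 acetylated on lysine 27, a modification found at promoters and enhancers in use. MYRF starts out anchored in the membrane of the endoplasmic reticulum (ER), assembles as a trimer and cleaves itself, which frees its DNA-binding part to enter the nucleus. It is best known as a regulator of myelin genes in oligodendrocytes. FOS pairs with JUN proteins to form AP-1, a factor that binds many enhancers of epithelial cells.

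The CFPAC1 MYRF lists held 4743 and 4041 peaks, the HPAF2 MYRF lists 3702 and 4326, the FOS lists 29087 and 36349, the control clone H3K27ac lists 116466 and 109352, and the MYRFKO clone lists 107586 and 110498. No read counts accompany the lists, so depth is unknown. Values of single sites are the authors' fold enrichment at the summit over local background, given for replicates 1 and 2 in that order and scaled within each list. H3K27ac lay within 1 kb of an end of all 8 epithelial and ductal marker genes in each of the 4 lists. It also lay at 3 to 6 of 9 markers of other cell types. CD3E, CD68 and COL1A1 had a peak in every list, and PTPRC, VWF and DCN in none. PECAM1 lacked one in control replicate 2 only, and COL1A2 and PDGFRB had one in MYRFKO replicate 2 only.

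A single RefSeq promoter window overlapped a site without H3K27ac, and its shared bases are shown because no other such window did. The window belongs to LOC107984661 on the minus strand, and the shared part is chr14:102039096-102039287 (GRCh38.p14). It lies inside DYNC1H1, the heavy chain of cytoplasmic dynein, and inside a MYRF site with fold enrichments of 6.02 and 4.78. The 192 bases hold CTGGNAC, searched here as the MYRF recognition core with any base at N, 1 time over both strands. The match, CTGGGAC, starts at base 97 and is shown in capitals. Whether MYRF favours a G at N was not tested. The bases hold no TGANTCA, the AP-1 sequence.
LOC107984661 window under a DYNC1H1 site: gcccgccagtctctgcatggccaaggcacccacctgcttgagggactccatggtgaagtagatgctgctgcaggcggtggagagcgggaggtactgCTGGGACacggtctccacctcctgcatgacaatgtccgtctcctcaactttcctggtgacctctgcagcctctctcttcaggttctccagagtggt
Of all 35116 windows of 300 bases, 18.5% held CTGGNAC and 7.71% held TGANTCA on either strand. Of the 349 windows under MYRF sites with H3K27ac, 27.2% held CTGGNAC and 16.6% held TGANTCA. A match describes the letters only, and 1 window carries no comparison. No miRNA hairpin of the 1562 with a position lay under a site without H3K27ac.

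The 367 sites fell into 3 kinds by gene position. A set of 192 (52.3%), called clustered here, lay in 43 protein-coding genes that each held 2 or more of them. Another 113 were the only such site in their gene, and 62 lay outside protein-coding genes. Of those 62, 6 were inside a long non-coding RNA gene and 55 inside no annotated gene. Exon positions were not used here.

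DYNC1H1 held 20 sites without H3K27ac, more than any other gene, followed by CHD8 (14), CSE1L (12), TPR (11) and DHX9 (10). These genes and those in the next paragraphs were chosen after their values were seen. CHD8 is a chromatin remodeller, CSE1L returns importin alpha to the cytoplasm, TPR forms the basket of the nuclear pore, and DHX9 is an RNA and DNA helicase. The 5 genes together held 67 sites. By comparison, no gene held more than 6 of the MYRF sites with H3K27ac, and 18.1% of those sites lay in a gene holding 2 or more of them.

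In DYNC1H1 (chr14:101964573-102056443, plus strand) the 20 sites had fold enrichments from 3.51 to 7.38 with a median of 5.65 in replicate 1. In replicate 2 they ran from 2.65 to 7.56 with a median of 4.96. The strongest, chr14:101992934-101994537, had 7.38 and 7.56, and the weakest in replicate 2, chr14:102002393-102003263, had 4.85 and 2.65. They lay 24780 to 75882 bp from the gene's start and 2859 to 20889 bp from H3K27ac, which covered 20.8% of the gene. The gene held 43 and 33 MYRF peaks in the CFPAC1 lists, against 2 and 7 in the HPAF2 lists. One of the 20 sites was reproducible in HPAF2, with folds of 4.29 and 6.61 there, and none had FOS.

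In CHD8 (chr14:21385199-21456123, minus strand) the 14 sites had folds of 4.18 to 8.36, median 4.54, in replicate 1 and 4.09 to 8.20, median 5.65, in replicate 2. All lay between 44970 and 64678 bp from the start, in the later part of a gene of 70925 bp. The neighbouring SUPT16H, a subunit of the FACT histone chaperone, starts 1179 bp away and held 5 more, so that 19 sites lay within 104648 bp. In CSE1L (chr20:49046312-49096949) the 12 sites had median folds of 4.01 and 4.51 and began 21148 bp into the gene. In TPR (chr1:186311652-186375253) the 11 sites had median folds of 4.52 and 4.67 and began 4426 bp into the gene. In DHX9 (chr1:182839347-182887982) the 10 sites had median folds of 4.22 and 5.09 and began 14586 bp into the gene. H3K27ac covered 5.27% of CHD8, 9.08% of CSE1L, 2.65% of TPR and 6.83% of DHX9. The sites sat in gene interiors, downstream of acetylated starts, as the map of the 5 genes shows.

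**Figure D1:**
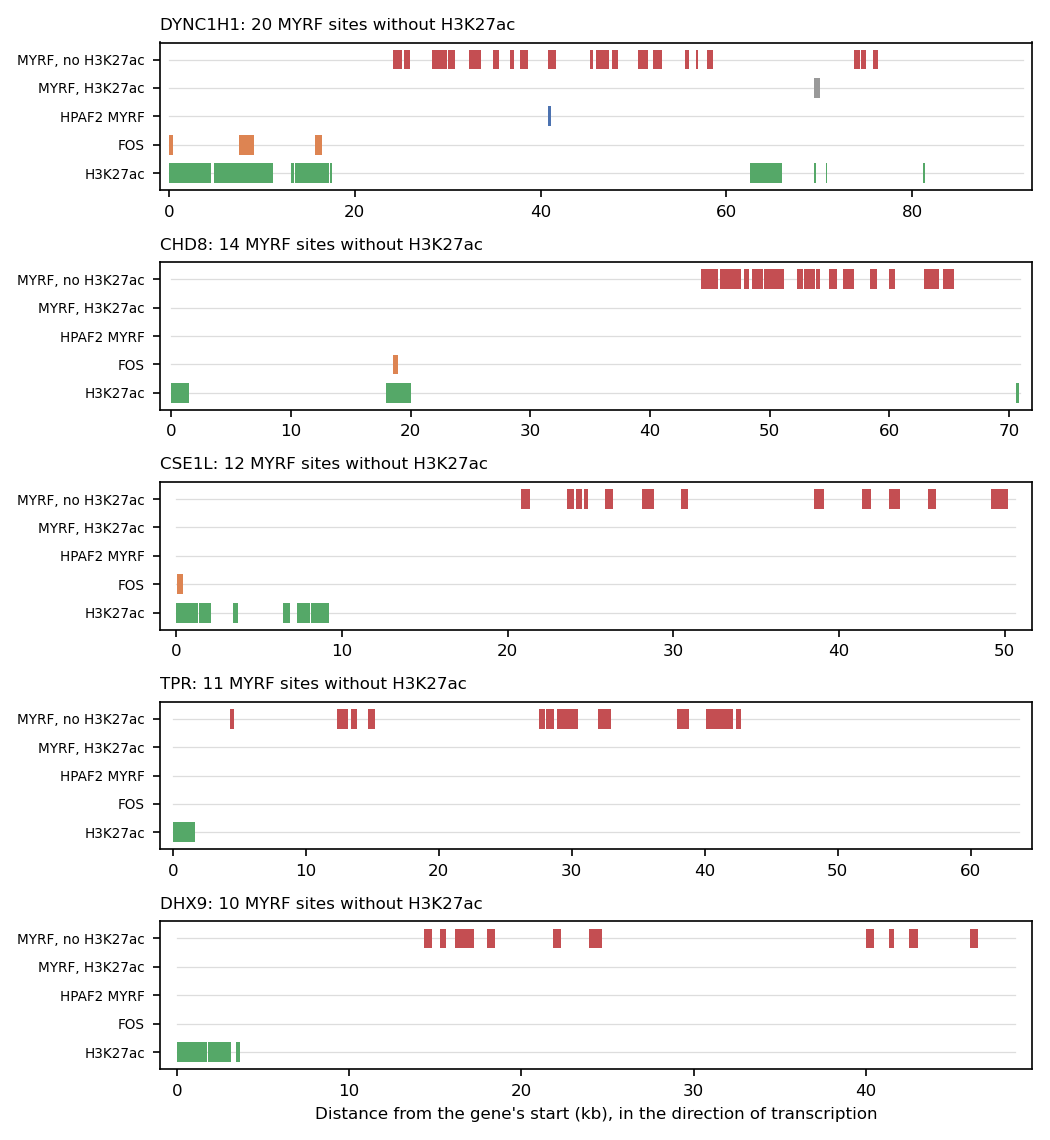
Positions along the 5 genes holding 10 or more sites without H3K27ac, in kb from each gene's start. Bars are MYRF sites without and with H3K27ac, reproducible HPAF2 MYRF and FOS sites, and H3K27ac of any of 4 lists; DYNC1H1 holds 20 sites without H3K27ac and 1 reproducible HPAF2 site.

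A further 9 genes held 5 to 8 sites. They were TOP2A (8), the topoisomerase that untangles DNA, CCAR1 (7), a coactivator, EIF3A (6), a translation initiation subunit, KPNB1 (6), the importin beta 1 nuclear import receptor, and MACF1 (6), a giant cytoskeletal linker. KMT2A, a histone methyltransferase, RBM39 and SRRM1, both splicing factors, and SUPT16H held 5 each. TOP2A had the lowest medians of the 14 genes, 3.71 and 3.58, with folds of 3.16 to 4.69 in replicate 1 and 2.53 to 3.91 in replicate 2. Its sites lay 10248 to 29182 bp from the start of a gene of 29372 bp. CCAR1 had the next highest median after DYNC1H1 in replicate 1, 5.37, and 4.64 in replicate 2, over sites 18994 to 50286 bp into the gene. The 6 MACF1 sites had medians of 5.31 and 5.43 and lay 351611 to 387986 bp into a gene of 402972 bp, the longest of the 14. EIF3A had medians of 4.24 and 4.52, KPNB1 4.47 and 4.10, KMT2A 4.91 and 4.33, RBM39 4.52 and 4.47, SRRM1 4.68 and 4.97, and SUPT16H 4.59 and 4.45. The median folds of the 14 genes thus stayed between 3.58 and 5.65 in both lists. None of the sites without H3K27ac in these 9 genes had reproducible HPAF2 MYRF or FOS.

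Across the 14 genes, which held 120 sites, the CFPAC1 lists had 251 and 208 MYRF peaks and the HPAF2 lists 10 and 17. The HPAF2 lists had no peak at all in 6 and 8 of the 14. FOS had 20 and 23 peaks there, 14 in each list within MACF1 alone.

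**Figure D2:**
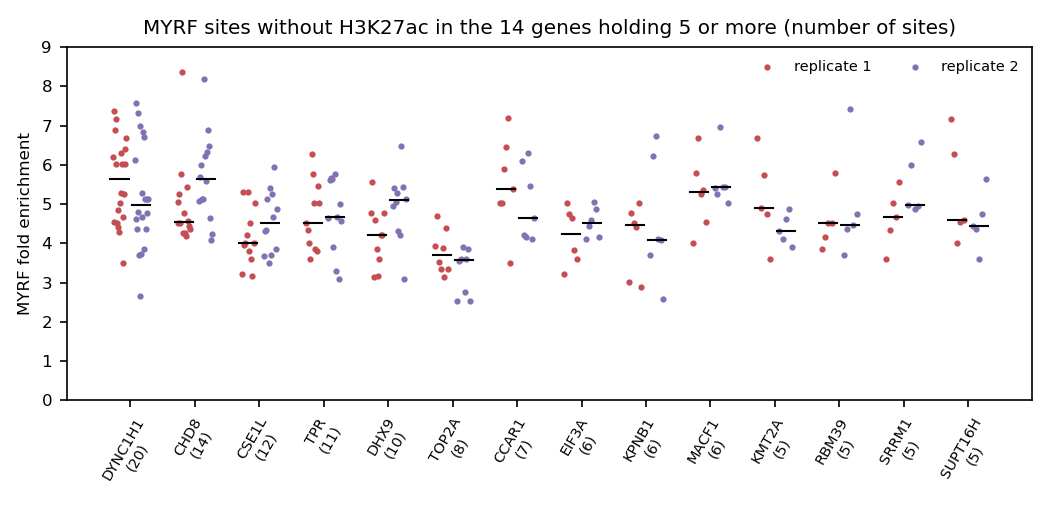
MYRF fold enrichment (linear axis) of every site without H3K27ac in the 14 genes holding 5 or more, in CFPAC1 replicates 1 and 2. Points are sites and black bars their medians; DYNC1H1 has medians of 5.65 and 4.96 and TOP2A of 3.71 and 3.58.

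The genes with 2 to 4 sites included CNOT1, HNRNPUL1 and LRPPRC (4 each), and CKAP5, CLTC, ECT2, NEMF, PATL1, RBM25, UBR4 and XRCC5 (3 each). CNOT1 is the scaffold of the CCR4-NOT deadenylase, CLTC the clathrin heavy chain, and XRCC5 the Ku80 subunit of DNA repair. SF3B1, SNRNP200, EP300 and PCBP2 were among the genes with 2.

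The 192 sites in these 43 genes were weak, wide and close together. Their median folds were 4.66 and 4.71, and none exceeded 8.36 in replicate 1 or 8.20 in replicate 2. Their median width was 510 bp and the strongest summits of the 2 replicates lay a median of 150 bp apart. The nearest other site without H3K27ac was a median of 1842 bp away. Clustered sites share a gene by definition, so their closeness follows in part from that definition. Sites alone in their gene had median folds of 5.15 and 5.41, a width of 391 bp and a summit distance of 46.0 bp. Sites outside genes had medians of 6.67 and 5.80, 380 bp and 23.0 bp. The MYRF sites with H3K27ac had medians of 6.39 and 6.17, 452 bp and 40 bp. Among all 367, 99 had another within 2000 bp, against 134 (5.52%) of the 2426 sites with H3K27ac that had another of those.

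**Figure D3:**
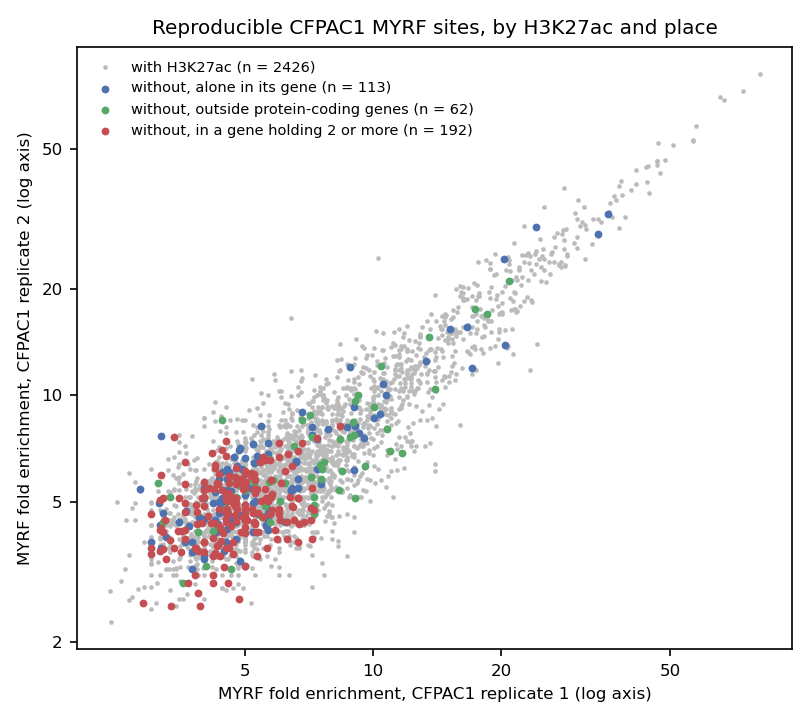
MYRF fold enrichment in CFPAC1 replicate 1 (horizontal) and replicate 2 (vertical), log axes, for all 2793 reproducible sites. The 192 sites in genes holding 2 or more sit at the low end, none above 8.36 or 8.20, while some single and intergenic sites reach over 20.

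Chromosome 14 held 57 of the 367 sites, which were 35.2% of its 162 MYRF sites, and 47 of the 57 were in genes holding 2 or more. Chromosome 1 held 60 (19.1% of its MYRF sites), chromosome 10 held 34 (17.7%) and chromosome 17 held 30 (17.8%). Chromosome 2 held 26 (11.1%) and chromosome 20 held 21 (18.1%), against 13.1% over all chromosomes.

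Most host genes of clustered sites were acetylated at their start. Of the 35 such genes with a RefSeq promoter window, 32 (91.4%, Wilson 95% interval 77.6 to 97.0) had H3K27ac over a window in all 4 lists. The 3 that lacked it in at least 1 list were KMT2A, PATL1 and PCBP2. The share was 70.1% (68 of 97) for genes with a single site, 76.1% (579 of 761) for genes holding only MYRF sites with H3K27ac, and 54.5% (8636 of 15842) for all protein-coding genes with a window. These shares use the H3K27ac lists and were not tested. The 43 genes had a median length of 63602 bp, against 90569 bp for genes holding only MYRF sites with H3K27ac and 24130 bp for all protein-coding genes. Of 161 clustered sites in 1 gene of known strand, 4 lay in the opening 20% of the gene and 32 in the last 20%. Among 919 MYRF sites with H3K27ac, 253 lay in the opening 20% and 120 in the last. The choice left out sites touching H3K27ac, which lay over most of these gene starts. The positions are therefore not independent of the choice and were not tested.

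Sites without H3K27ac lay inside protein-coding genes far more often than sites with it. The counts were 305 of 367 (83.1%, 78.9 to 86.6) and 1168 of 2426 (48.1%, 46.2 to 50.1), with 52.7% over all reproducible MYRF sites. The odds ratio was 5.30 (95% interval 3.99 to 7.04, two-sided Fisher's exact test, Benjamini-Hochberg adjusted over 5 tests, p = 1.69e-38). Within 10 strata of MYRF strength the Mantel-Haenszel odds ratio was 4.94 (3.72 to 6.57, exact conditional test, adjusted p = 7.00e-35). Sites in 1 gene are not independent, and with 1 site per gene the odds ratio was 3.47. Without the 192 clustered sites it was 1.96. Clustered sites lie in genes by definition, so leaving them out had to lower the odds ratio. The 439 sites with H3K27ac in genes holding 2 or more of those were kept. With only H3K27ac peaks of a -log10 q of at least 10 the odds ratio was 2.95, and with H3K27ac judged at the summits alone 1.94. With all replicate 1 peaks in place of reproducible sites, leaving out replicate 2, it was 8.86. Among peaks with a -log10 q of at least 10 in both libraries, 26 of 50 and 46.9% were inside genes, an odds ratio of 1.23 that did not pass (Fisher's exact p = 0.563).

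Ends of genes were rare among them. A protein-coding gene's start or end lay within 1 kb of 4 of 367 sites (1.09%, 0.425 to 2.77) and of 283 of 2426 sites with H3K27ac (11.7%, 10.4 to 13), against 10.3% overall. The odds ratio was 0.0834 (0.0309 to 0.225, adjusted Fisher's exact p = 1.07e-13), and 0.0808 (0.0302 to 0.216) within strength strata. With all peaks of 1 list it was 0.138 without replicate 2 and 0.176 without replicate 1. It was 0.188 with only H3K27ac peaks of a -log10 q of at least 10, 0.137 with the MYRFKO clone lists alone, 0.158 with H3K27ac judged at the summits, 0.0506 with no H3K27ac within 1000 bp, and 0.269 for a gene end within 5 kb. With the -log10 q minimum of 10 the odds ratio was 0.228 with 1 of 50 sites at a gene end, and did not pass (Fisher's exact p = 0.174). The 4 sites were at SSR2, PTK2B, PAK6 and TOP2A. The SSR2 site was the strongest and lay 336 bp beyond the far end of the gene. The TOP2A site lay 188 bp inside the far end and the site at PAK6, a p21-activated kinase, 312 bp inside the start. The site at PTK2B, a kinase related to focal adhesion kinase, lay 23 bp outside an end, with HPAF2 folds of 20.3 and 12.6 beside CFPAC1 folds of 8.47 and 6.09.

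HPAF2, the other pancreatic cancer line, shared few of the sites. A reproducible HPAF2 MYRF site overlapped 62 of 367 (16.9%, 13.4 to 21.1) against 1222 of 2426 sites with H3K27ac (50.4%, 48.4 to 52.4), with 46.0% overall. The odds ratio was 0.20 (0.151 to 0.266, adjusted Fisher's exact p = 1.04e-35), and 0.257 (0.189 to 0.350, exact conditional adjusted p = 1.33e-20) within strength strata. By kind, the share was 1.04% (2 of 192) for sites in genes holding 2 or more, 24.8% (28 of 113) for sites alone in a gene and 51.6% (32 of 62) outside genes. Without the clustered sites it was 34.3% and the odds ratio 0.514 (Fisher's exact p = 4.22e-05), and with 1 site per gene 27.5% and 0.362. With only H3K27ac peaks of a -log10 q of at least 10 the odds ratio was 0.373, with H3K27ac judged at the summits alone 0.632, with none within 1000 bp 0.127, and with all replicate 1 peaks, leaving out replicate 2, it was 0.108. Among peaks with a -log10 q of at least 10, 30 of 50 sites without H3K27ac (60%) and 67.8% of the rest were in HPAF2, an odds ratio of 0.713 that did not pass (Fisher's exact p = 0.280). HPAF2 had 3 reproducible MYRF sites in all 43 genes together. The samples include an input of HPAF2 and none of CFPAC1. The control used to call the CFPAC1 peaks is not given in the sources used here. Whether the clustered peaks are binding was not tested. HPAF2's own 545 reproducible sites without CFPAC1 H3K27ac lay inside a protein-coding gene in 46.2% of cases. Of those sites, 7.71% were in the 19 genes holding 2 or more of them. Of these 19 genes, 0 were among the 43. With only 43 of all 20033 protein-coding genes in that set, this says nothing particular of either line.

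By number of H3K27ac lists, the HPAF2 share was 46.4% for the 69 sites with H3K27ac in 1 list, 49.5% for 93 sites in 2 lists, 50.8% for 128 sites in 3 lists and 50.5% for 2136 sites in all 4. The FOS share over the same classes was 40.6%, 57.0%, 56.2% and 75%. These shares are a description, and the classes were not compared by a test.

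The shared proportion followed MYRF strength. From the weakest to the strongest quintile of all reproducible sites it was 6.40%, 9.40%, 19.7%, 37.1% and 70.8% for sites without H3K27ac. For sites with H3K27ac it was 33.4%, 37.1%, 42.1%, 54.8% and 78.5%. The intervals of the strongest quintile, 50.8 to 85.1 and 74.8 to 81.7, overlapped. The number of sites without H3K27ac fell along the same order from 125 to 117, 66, 35 and 24, so that they made up 22.4% of the weakest quintile and 4.30% of the strongest. Of the 24 in the strongest quintile, 15 were alone in their gene, 9 outside genes and 0 in genes holding 2 or more.

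**Figure D4:**
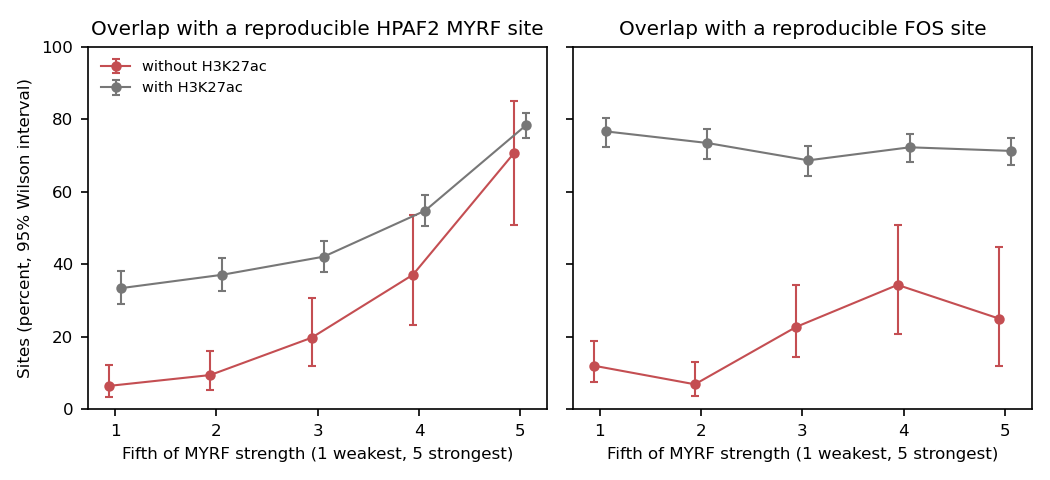
Share of sites (percent, with 95% Wilson intervals) overlapping a reproducible HPAF2 MYRF site (left) or FOS site (right), by quintile of CFPAC1 MYRF strength. HPAF2 shares climb to 70.8% and 78.5% and their intervals overlap in the strongest quintile, while FOS shares stay between 6.84% and 34.3% without H3K27ac and between 68.7% and 76.7% with it.

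FOS was absent from most of them at every strength. A reproducible FOS site of the control clone overlapped 56 of 367 (15.3%, 11.9 to 19.3) against 1756 of 2426 (72.4%, 70.6 to 74.1), with 64.9% overall. The odds ratio was 0.0687 (0.0510 to 0.0926, adjusted Fisher's exact p = 9.10e-99), and 0.0704 (0.0523 to 0.0950, exact conditional adjusted p = 3.71e-94) within strength strata. None of the 192 clustered sites had FOS in either list, whereas 32 of 113 (28.3%) alone in a gene and 24 of 62 (38.7%) outside genes had it. Without the clustered sites the odds ratio was 0.180 and with 1 site per gene 0.138. With H3K27ac judged at the summits alone it was 0.323, with none within 1000 bp 0.0226, and with all replicate 1 peaks, leaving out replicate 2, it was 0.0399. Unlike the HPAF2 difference, this one passed among peaks with a -log10 q of at least 10, where 17 of 50 (34.0%) and 73.9% had FOS (odds ratio 0.182, Fisher's exact p = 1.03e-08). Where FOS was present, its median folds were 6.58 and 7.50, and the MYRF and FOS summits lay a median of 41.5 bp apart. For sites with H3K27ac those values were 7.82, 8.84 and 74.5 bp. FOS and HPAF2 MYRF coincided at 26 sites, and 275 of 367 had neither.

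Recovery between replicates can be described over single-list peaks. Of 1331 replicate 1 MYRF peaks without H3K27ac, 401 (30.1%) overlapped a replicate 2 peak, against 2429 of 3412 (71.2%) with it and 59.7% overall. Both the MYRF and the H3K27ac calls entered the choice of sites, so these shares are a description. Inside the 43 genes, where the genes themselves were chosen for reproducible sites, 215 of 473 such peaks (45.5%) recurred. Outside them 186 of 858 (21.7%) did.

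Distance to H3K27ac had a lower and an upper group. The median was 13631 bp, with quartiles of 5174 and 25100 bp. In 54 sites the nearest peak of any list was within 250 bp, in 6 it was farther but within 1000 bp, in 73 within 10000 bp, in 212 within 50000 bp, and in 22 beyond. FOS was at 39 of the 54 nearest sites (72.2%) and at 6 of the 212 between 10000 and 50000 bp (2.83%). It was at 6 of the 22 sites beyond 50000 bp (27.3%). HPAF2 MYRF was at 25 (46.3%), 13 (6.13%) and 8 (36.4%) of the same 3 groups. Of the 212, 149 were clustered sites, with FOS at 0 and HPAF2 MYRF at 1 of them. None of the 54 was in a gene holding 2 or more. Clustered sites lay a median of 15729 bp from H3K27ac, sites alone in a gene 10129 bp and sites outside genes 4852 bp. Per list the median distance was 14945 and 15759 bp in the control clone and 15516 and 15405 bp in the MYRFKO clone.

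**Figure D5:**
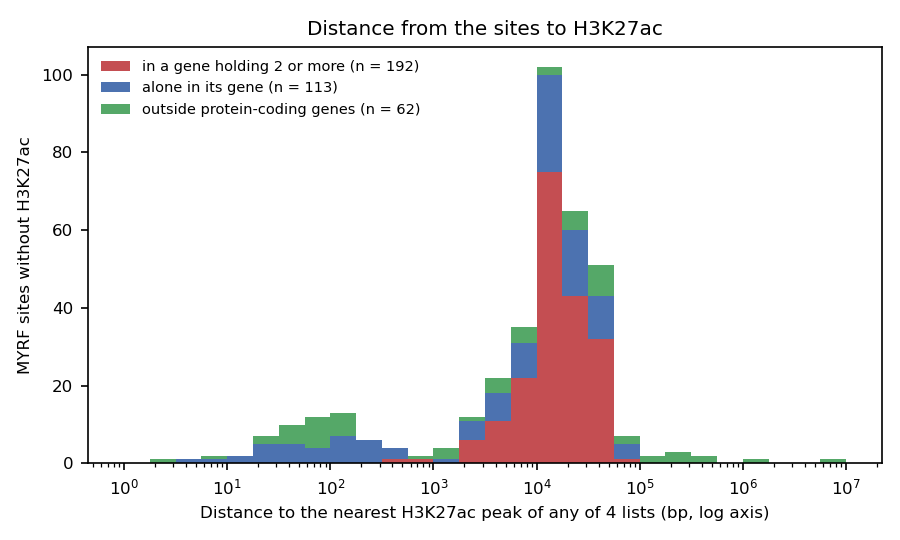
Number of sites without H3K27ac by distance to the nearest H3K27ac peak of any of 4 lists (bp, log axis), stacked by kind. A small group of single and intergenic sites lies within 250 bp, and the clustered sites lie mostly between 10000 and 50000 bp.

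At the boundary of the choice, the nearest sites inside it lay 2 bp from H3K27ac (61689 bp from SP4), 5 bp (in IL20RA, a cytokine receptor subunit) and 6 bp (in CREB5, a transcription factor). The SP4 site had MYRF folds of 7.11 and 8.79. The nearest sites outside it overlapped H3K27ac by 8 bp (far from MATN1, with folds of 7.28 and 4.88), 8 bp (in AUTS2, 9.15 and 14.4) and 9 bp (154 bp from CPA4, 4.69 and 4.13). Altogether 21 sites lay within 50 bp of H3K27ac and 41 of the others overlapped it by 50 bp or less.

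The 60 sites with H3K27ac within 1000 bp had it in 1 list (17 sites), 2 lists (20), 3 lists (10) or all 4 (13), and 23 had it on both sides. At 5 of them H3K27ac was within 1000 bp in both control lists and in no MYRFKO list. They lay in DOCK1, SNX7 and LRMDA and outside genes, with DLG1 and MLN the nearest. At 1, in ABCA13, it was near in both MYRFKO lists (28 and 72 bp) and in no control list (38635 and 38049 bp). The lists chose these sites, and no test was made.

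Of the 12 sites of highest joint rank, the lower of the within-list percentiles of fold, 8 were shared with HPAF2. The highest rank belonged to a site in PDE9A, a cyclic GMP phosphodiesterase (chr21:42663894-42664656). Its CFPAC1 folds were 35.7 and 32.7 and its HPAF2 folds 81.0 and 86.8, with no FOS peak. H3K27ac was 8091 and 8948 bp away in the control lists and 9060 and 9204 bp in the MYRFKO lists.

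A site in GRIN2A, an NMDA receptor subunit gene of neurons (chr16:9870916-9871543), came next. It had folds of 33.7 and 28.6 in CFPAC1 and 34.2 and 34.9 in HPAF2, no FOS, and H3K27ac no nearer than 72878 bp. A site in MTHFD1L, a mitochondrial folate enzyme (chr6:150934279-150934784), was likewise isolated, with folds of 15.2 and 15.5 in CFPAC1, 51.9 and 44.3 in HPAF2, no FOS and H3K27ac at 51533 bp. These were strong sites of both lines far from any acetylation in CFPAC1.

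Other strong sites lay beside acetylation. A site in BST1, a membrane NAD glycohydrolase (chr4:15754982-15755758), had CFPAC1 folds of 24.2 and 29.9, HPAF2 folds of 8.73 and 12.3 and FOS folds of 11.7 and 14.8. Its nearest H3K27ac peak was at 124 and 299 bp in the control lists and at 291 and 18113 bp in the MYRFKO lists. A site in DOCK1, an exchange factor for RAC (chr10:126960018-126960522), had 20.3 and 24.4 in CFPAC1, 22.7 and 31.5 in HPAF2 and FOS folds of 4.88 and 5.11. There H3K27ac was at 240 and 232 bp in the control lists and at 11954 and 11722 bp in the MYRFKO lists. A site in CXADR, a cell junction receptor (chr21:17527204-17527805), had 16.7 and 15.7 in CFPAC1, 9.11 and 15.6 in HPAF2, FOS folds of 5.18 and 3.64 and H3K27ac on both sides, 33 and 52 bp away.

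The site at SSR2 (chr1:156008347-156009076) had folds of 20.8 and 21.1 in CFPAC1 and 15.2 and 13.8 in HPAF2, no FOS, and H3K27ac at 872 to 1045 bp over the 4 lists. SSR2 encodes a subunit of the translocon-associated complex, which helps proteins enter the ER. A site 46520 bp from WSB1, a ubiquitin ligase adaptor (chr17:27247276-27247889), had 13.6 and 14.6 in CFPAC1, 30.7 and 36.0 in HPAF2 and H3K27ac at 1491 bp.

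The strongest sites without a reproducible HPAF2 site had no HPAF2 peak in either list. The site 52831 bp from MLN, the gut hormone motilin (chr6:33856532-33857100), had folds of 17.3 and 17.5. H3K27ac was at 248 and 126 bp in the control lists and at 15123 and 15024 bp in the MYRFKO lists. A site 784289 bp from UQCRFS1, the Rieske protein of respiratory complex III (chr19:28420754-28421295), had 18.6 and 17. A site in PITPNC1, a phosphatidylinositol transfer protein (chr17:67582587-67583112), had 20.5 and 13.9 and H3K27ac no nearer than 52847 bp. A site where CEP72, a centrosomal protein, and TPPP, a tubulin-binding protein of oligodendrocytes, overlap (chr5:669291-669940) had 13.3 and 12.6. Sites 787358 bp from GALNTL6 and 411587 bp from WSB1 had folds of 10.4 and 12.2, and of 9.09 and 9.66. None of these 6 had FOS.

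The next sites with FOS were in ARHGAP6, with MYRF folds of 10.6 and 10.8 and FOS folds of 4.69 and 7.43, and 11270 bp from DUSP5, a phosphatase of ERK. The DUSP5 site had MYRF folds of 9.24 and 10.0 and FOS folds of 5.69 and 5.86. In PAQR9, a site with MYRF folds of 9.04 and 9.28 had FOS folds of 8.46 and 12.3 and HPAF2 folds of 12 and 12.5.

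Among the 62 sites shared with HPAF2, 23 were at or above the 90th percentile of fold in both HPAF2 lists, against 255 of 1222 shared sites with H3K27ac. The fold of the authors is scaled within each library, so the values of the lines stand side by side without a comparison. Of the 23, 8 were below the 50th percentile in a CFPAC1 list. The following 2 of the 23 were chosen after their values were seen. A site 10897 bp from CHST4, a sulfotransferase for mucin-type glycans (chr16:71514934-71515329), had CFPAC1 folds of 4.52 and 4.81 and HPAF2 folds of 39.9 and 51.0, with H3K27ac at 89 bp. A site 2290 bp from EPHB3, an ephrin receptor, had CFPAC1 folds of 8.83 and 7.62 and HPAF2 folds of 34.1 and 37.4. No HPAF2 H3K27ac was analysed here.

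The site farthest from H3K27ac, at chr21:8219743-8220184, was 5844005 bp from the nearest H3K27ac peak, with CFPAC1 folds of 10.0 and 9.30 and HPAF2 folds of 7.29 and 7.24. Sites on chromosomes Y, 10 and 17 were 1092165, 467235 and 428812 bp away, and none of these 3 was in HPAF2. Both HPAF2 MYRF lists held 0 peaks on chromosome Y, so absence there says nothing of the Y site. Reproducible FOS was at the chromosome 10 site (3.61 and 4.68) and the chromosome 17 site (5.03 and 6.59). The chromosome Y site had a FOS peak in replicate 2 only (4.65). No filter for repeated sequence was applied here. A site 49438 bp from ATP2B2, a plasma membrane calcium pump, was 204617 bp away, with folds of 6.06 and 5.02 in CFPAC1 and 7.05 and 7.86 in HPAF2. A site 136672 bp from GRIA1, an AMPA receptor subunit, was 198063 bp away, with 7.17 and 5.89 in CFPAC1 and no HPAF2 peak.

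Over the 16 gene lists, 7 of 413 entries (1.69%) were assigned a site. Sites went to the closest protein-coding gene end up to 50 kb away, which placed 303 of 367, at 163 genes (0.814% of 20033). Of 26 ER folding genes, 2 (7.69%) were assigned a site, CANX, the chaperone calnexin (4.27 and 5.32), and SIL1, an exchange factor of the chaperone BiP (7.58 and 6.18, in HPAF2 9.25 and 11.3). Of 22 ER translocation genes, SSR2 was the only one (4.55%). Of 31 ER-to-Golgi genes, 2 (6.45%) were assigned a site and 3 held one, COPA (3.51 and 4.39), COPB2 (4.64 and 5.36) and ARCN1 (5.69 and 4.17), which are subunits of the COPI coat. None of the 17 unfolded protein response, 16 ER-associated degradation or 36 glycosylation genes had a site, which at 0.814% of all genes says nothing particular of these lists.

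Of 31 mucin and epithelial glycoprotein genes, LAMA3, a laminin chain, held 1 site (4.70 and 4.53). Of 24 myelin and oligodendrocyte genes, UGT8, the enzyme of galactocerebroside synthesis, was assigned 1, at 34780 bp (4.85 and 5.56, with FOS and in HPAF2), and TPPP held the site named above. Of 25 neuronal genes, GRIN2A held 1 but lay beyond 50 kb of an end. The classical and basal-like pancreatic cancer, epithelial factor, AP-1, mesenchymal, homeobox and olfactory receptor lists had 0. MYRF itself had no such site within 50 kb.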

How the data were processed

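The submitters' processing notes name MACS2 2.1.0.20150731, Bowtie2 2.2.6, Trimmomatic 0.38 and SAMtools, and the human build hg38 (GRCh38). The deposited lists, 1 per library, hold the authors' fold enrichment at each peak's summit, a -log10 p, a -log10 q and a score. The control behind the CFPAC1 folds is not given in the sources used here, so folds were used within a list alone, for description, ranks and strata. No count accompanies them and depth is unknown. The HPAF2 input was not analysed here.

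Merging and overlap used at least 1 bp, and a site's centre was the mean of its strongest summits. Gene positions came from the RefSeq table of GRCh38.p14 (20033 protein-coding genes), and strand from its promoter windows, which matched 132 of the 159 host genes. Presence was tested by two-sided Fisher's exact tests and Mantel-Haenszel odds ratios over 10 strata of strength, adjusted over 5 tests by Benjamini-Hochberg at a threshold of 0.05. One of the 5, recovery between replicates, used the calls that chose the sites and is given as shares only. Shares carry Wilson 95% intervals, which cover counting over sites only. No filter on low values was applied, so all 367 sites entered each site test. No interval had equal position and fold in both replicates of a group.

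The sites, the gene lists and tests were chosen with earlier results of these data known. Named genes were those nearest the 12 sites of highest joint rank, the 6 of highest rank shared with HPAF2, absent from it or with FOS, the 6 farthest from H3K27ac, the sites at gene ends, the 3 nearest to the boundary on either side, MYRF and up to 3 genes per list. Genes outside this rule are marked as picked with their values in view. Alternatives covered the H3K27ac and MYRF lists used, a -log10 q minimum of 10, distance, summits, strata and each library left out. A check of overlaps and distances with bedtools 2.31.1 found 0 differences, and the odds ratios were tested on simulated data. Scripts ran in Python 3.11.15 with scipy 1.17.1, pandas 2.3.3, numpy 2.4.6 and, for figures, matplotlib 3.10.9.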

Additional observations from a re-analysis of the deposited data

How the results depend on the processing

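Of 144 recomputed values, 134 stayed on the same side of the test or within 1.5 times the count. The others came from the MYRF lists used and from the summit rule. Each test alternative gave both a Fisher and a Mantel-Haenszel value, so the values counted are not independent. A change in the number of strata cannot move a Fisher value. With MYRF peaks of a -log10 q of at least 10 in both libraries, the number of sites without H3K27ac was 50 of 1133. The odds ratios were then 0.713 for HPAF2 MYRF (0.729 within strata), 0.228 for gene ends (0.221) and 1.23 for gene interiors (1.21), and these no longer passed; that alternative tests fewer sites. With H3K27ac judged at the summits alone, 732 sites were without it. Leaving out 1 library gave 376 to 1331 sites, the higher values without CFPAC1 MYRF replicate 1 (974) or replicate 2 (1331), where single-list peaks replace reproducible ones. Over all alternatives the Fisher odds ratio ran from 0.0226 to 0.323 for FOS and from 0.108 to 0.713 for HPAF2 MYRF. It ran from 0.0506 to 0.269 for gene ends and from 1.23 to 8.86 for gene interiors. The Mantel-Haenszel ranges, in the same order, were 0.0236 to 0.334, 0.165 to 0.729, 0.0475 to 0.266 and 1.21 to 7.64. The alternatives with 1 site per gene and without clustered sites were chosen after seeing the data. Depth is unknown, and presence in a list depends on it. No paired analysis was possible because a peak's presence or absence over sites is tested within merged lists and not per library, so the replicate numbers carry no block.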
